A study of Mus musculus with 6 samples.

Results

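The genes described here make, fold and clear proteins in the endoplasmic reticulum (ER), the compartment in which a cell assembles its membrane and secreted proteins. They are 33 genes chosen by symbol, covering chaperones, disulfide-forming enzymes, ER-associated degradation (ERAD), the translocon and the stress sensors, and each matched 1 of the 57010 gene identifiers of the count table. The RNA came from CT26, a cell line of mouse colon carcinoma, that carried a guide against Cdk10 (sgCdk10, 3 libraries) or a control guide (sgControl, 3 libraries), with no further treatment named in the labels. Whether the cells of a group were a clone or a pool, and whether its libraries came from separate cultures, is not given in the sources used here, so the p-values speak only of the spread among the libraries, possibly a technical one. The only comparison that the labels give is sgCdk10 against sgControl, and it is asked here of the ER genes.

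The lumen of the ER is kept oxidising and rich in chaperones. BiP, the product of Hspa5, binds unfolded chains, the lectins calnexin and calreticulin hold glycoproteins, and protein disulfide isomerases form and rearrange disulfide bonds. Chains that fail to fold are extracted through the SEL1L and HRD1 complex and destroyed by the proteasome in the cytosol. When unfolded proteins build up, the sensors IRE1 (Ern1), ATF6 and PERK (Eif2ak3) start the unfolded protein response: IRE1 splices Xbp1 mRNA, ATF6 is cleaved to a transcription factor, and PERK slows translation and raises ATF4.

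Library totals lay between 17532202 and 19258309 counts, so that 3 counts, taken as the floor of detection, stood for 0.156 to 0.171 counts per 1000000 counts (CPM); the floor covers counting error only. CPM values were scaled by TMM factors. Libraries of a group correlated at r = 0.994 to 0.996 over genes and libraries of different groups at 0.987 to 0.990. One library, sgControl replicate 3, stood apart from the other 5 on the second principal component (16.5% of the variance) and differed from the other sgControl libraries with chi-square over degrees of freedom at 3.97 and 4.02, against 1.49 to 1.56 for the other pairs within a group. Cdk10 itself had 204, 227 and 202 counts in sgCdk10, against 381, 344 and 365 in sgControl, a log2 fold change of -0.82 (SE 0.08; by edgeR, adjusted p = 8.4e-09). Of 10 epithelial and colon markers Krt18 and Krt20 carried nearly all the signal, 4 had at most 3 counts in any library, and Epcam had 0 counts in all 6 libraries. The summed level of those 10 markers was 57.98 to 59.4 CPM in sgCdk10, against 36.9 to 40.7 CPM in sgControl. Muc2, also among the 10, moved against that sum. Its libraries held 7, 8 and 9 counts with the Cdk10 guide and 13, 16 and 16 with the control guide (adjusted p = 0.031 by edgeR). Leukocyte markers summed to 56.4 to 58.8 CPM in sgCdk10 and 49.8 to 56.3 CPM in sgControl, nearly all of it Cd14 and Cd68, while 9 of 12 had at most 3 counts in any library and 5 of them (Cd3e, Cd3g, Adgre1, Nkg7 and Ms4a1) had 0 throughout. Plasma cells, which are rich in ER, were represented by 6 markers that summed to 36.6 to 37.7 CPM in sgCdk10 and 25.8 to 29.1 CPM in sgControl, from Sdc1, Prdm1 and Tnfrsf17, with Igkc at 0 and Jchain and Mzb1 at no more than 3 counts. Of these Prdm1 averaged 5.71 CPM in sgCdk10 and 1.14 CPM in sgControl, and rose by 2.32 in log2 (edgeR adjusted p = 4.2e-10). Sdc1 rose by 0.25 (edgeR adjusted p = 0.0011). Tnfrsf17 averaged 1.05 CPM in sgCdk10 and 1.18 CPM in sgControl and was not called (edgeR adjusted p = 0.65). Fibroblast and endothelial markers summed to 13.99 to 15.5 CPM in sgCdk10 and 9.64 to 10.3 CPM in sgControl, mostly Pdgfra, with Lum at 0 among the 6. The part of these markers in the results below was not tested.

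Most ER genes were slightly more abundant in sgCdk10. Of the 32 that passed the filter on low counts, 19 were higher and 3 were lower, and 10 were not called (edgeR's quasi-likelihood test, Benjamini-Hochberg adjusted over all genes, threshold 0.05). Over all 13442 genes tested, 22.1% were called higher and 20.4% lower, 42.5% in all. The ER genes were chosen with earlier results of these data known, so their balance of calls is not independent evidence of direction. The rises ran from 1.07-fold for Sel1l to 1.59-fold for Ero1l, and the falls from 0.761-fold for Herpud1 to 0.911-fold for Atf6. The median of the 32 was a log2 fold change of 0.16, beside a median of -0.0031 over all genes tested. Only Ero1l among the 22 called genes changed by at least 1.5-fold; of all called genes 86.4% changed by less. Groups did not overlap in 20 ER genes that were higher and 4 that were lower in sgCdk10, where this held for 26.6% and 24.8% of all genes tested, 51.4% together. Without sgControl replicate 3 the counts were also 19 higher and 3 lower. In bulk RNA a change in RNA per cell cannot be told apart from a change in the mix of cells.

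Taken as a sum, the 33 genes held 9030, 9045 and 9116 CPM in sgCdk10 replicates 1, 2 and 3, against 8208, 8262 and 8246 CPM in the sgControl libraries. The mean of the sum was 10.01% higher in sgCdk10, a difference of 825 CPM. Of that difference, 76.2% came from the 5 genes with the largest rises in CPM. Hspa5 gave 26.7%, Ero1l 15.7%, Hsp90b1 14.03%, P4hb 10.9% and Pdia4 8.87%. The largest negative part was that of Herpud1, at -4.54%.

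**Figure D1:**
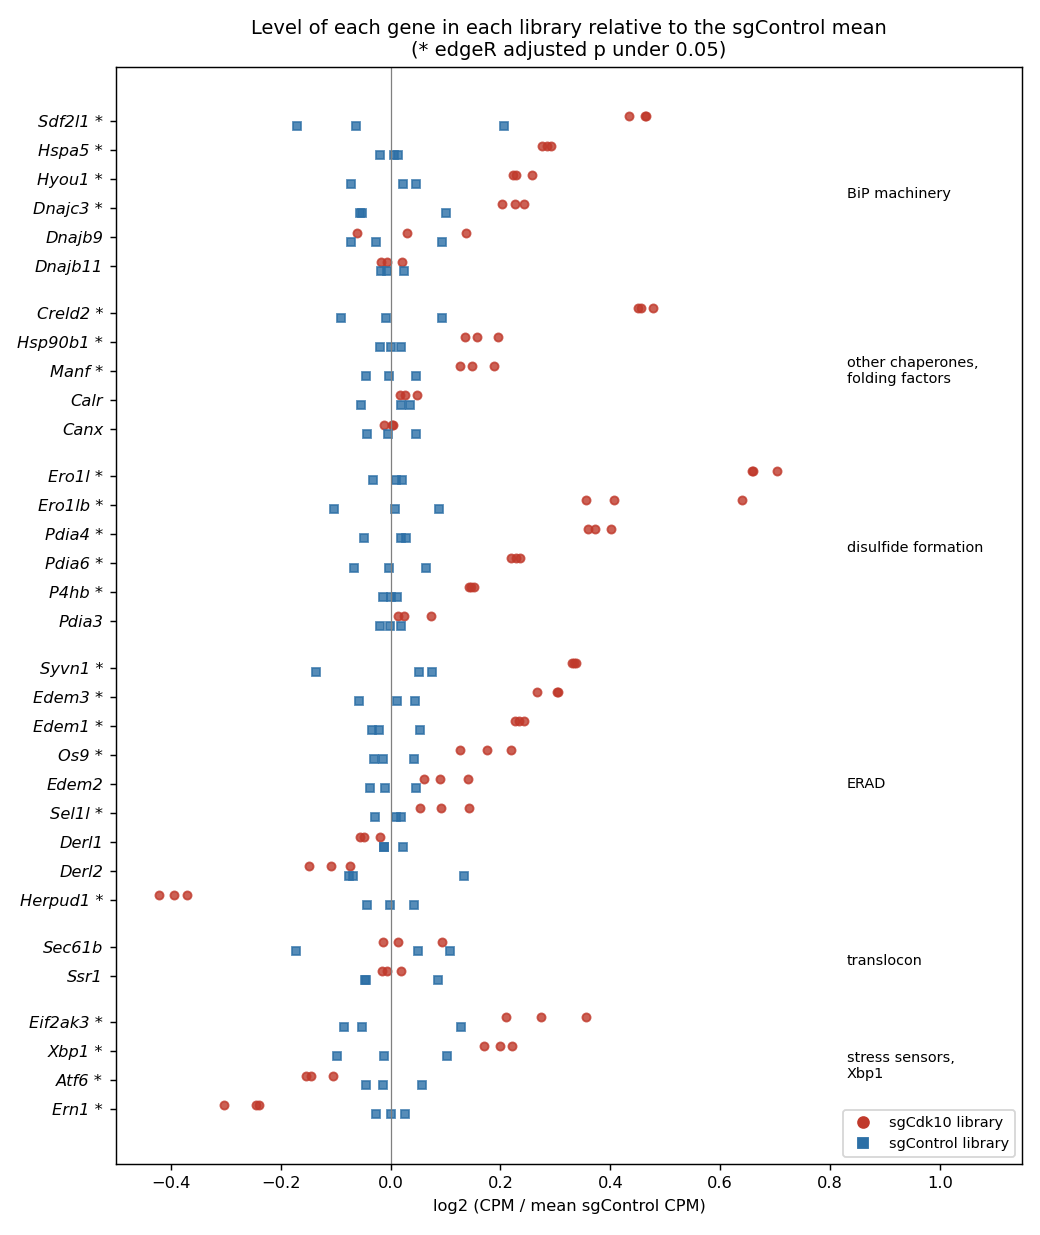
Each point is 1 library; the x axis gives the log2 ratio of its CPM to the mean CPM of the sgControl libraries, and the 32 tested genes run down the page by role, sgCdk10 as circles drawn above the sgControl squares. Circles lie to the right of all squares in most chaperone and disulfide genes, around the squares in the translocon genes, and to the left in Herpud1, Ern1 and Atf6; a star marks an edgeR adjusted p under 0.05.

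The sensors moved in both directions. Ern1 (ENSMUSG00000020715, chr11:106394650-106487852 on the minus strand of GRCm38, 22 merged exons) encodes IRE1, the kinase and RNase that splices Xbp1. It had 146, 147 and 141 CPM in sgCdk10, against 177, 170.2 and 173 CPM in sgControl. Its groups did not overlap, and the log2 fold change was -0.26 (SE 0.03, edgeR adjusted p = 2.9e-07). Atf6 (ENSMUSG00000026663, chr1:170704674-170867771, minus strand, 16 merged exons) encodes the membrane-bound transcription factor. It had 212, 218 and 210.5 CPM in sgCdk10, against 227, 232 and 244 CPM in sgControl, a log2 fold change of -0.14 (SE 0.03; by edgeR, adjusted p = 0.0011). Eif2ak3 (ENSMUSG00000031668, chr6:70844515-70905245, plus strand, 19 merged exons) encodes PERK, the kinase that phosphorylates eIF2-alpha. Its level was lower than that of the other sensors per length of transcript, at 4.23 CPM per kb in sgCdk10 and 3.48 in sgControl, beside 17.7 and 21.2 for Ern1 and 23.1 and 25.4 for Atf6. In CPM it stood at 26.9, 24.3 and 25.4 in sgCdk10, against 20.2, 22.9 and 19.8 in sgControl, and rose by 0.28 in log2 (SE 0.07, edgeR adjusted p = 0.0011). Xbp1 (ENSMUSG00000020484, chr11:5520659-5525893, plus strand, 4 merged exons), the transcription factor downstream of IRE1, had 58.9, 57.7 and 59.8 CPM in sgCdk10, against 50.9, 48.0 and 55.1 CPM in sgControl. It rose by 0.20 in log2 (SE 0.05, edgeR adjusted p = 0.0018). Counts per gene do not separate spliced from unspliced Xbp1, and none of these values measures the activity of a sensor.

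BiP and most of its partners were higher. Hspa5 (ENSMUSG00000026864, chr2:34771970-34777547, plus strand, 7 merged exons) had 1237, 1223 and 1231 CPM in sgCdk10, against 1019, 997 and 1014 CPM in sgControl. Every sgCdk10 library lay above every sgControl library, and the rise was 1.22-fold, or 0.28 in log2 (SE 0.02, edgeR adjusted p = 1.3e-09). Sdf2l1, a cofactor that keeps BiP and its J-domain partners from aggregating with substrates, had 29.4, 29.3 and 28.7 CPM in sgCdk10, against 24.5, 20.3 and 18.9 CPM in sgControl. It rose by 0.45 (SE 0.07) on the log2 scale, with sgControl libraries more spread than those of sgCdk10. Hyou1, the HSP110-type chaperone that exchanges nucleotide on BiP, rose by 0.24 (SE 0.03). Dnajc3, a J-domain cochaperone also known as p58IPK, rose by 0.22 (SE 0.04). The other J-domain partners were not called. Dnajb9, which is known to bind IRE1 as well as ERAD substrates, had 31.6, 27.5 and 29.3 CPM in sgCdk10 and 27.3, 28.2 and 30.6 CPM in sgControl (edgeR adjusted p = 0.65). Dnajb11, which delivers nascent chains to BiP, averaged 96.7 ± 1.29 CPM in sgCdk10 and 96.7 ± 1.49 CPM in sgControl (SD, n = 3 each; edgeR adjusted p = 0.99).

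Of the other folding factors, Creld2 changed most. Creld2 (ENSMUSG00000023272, chr15:88819646-88826683, plus strand, 10 merged exons), a stress-inducible ER protein with disulfide isomerase activity, had 112, 114 and 113 CPM in sgCdk10, against 81.6, 87.5 and 77.0 CPM in sgControl. The rise was 1.38-fold, with a log2 fold change of 0.46 (SE 0.04; by edgeR, adjusted p = 1.3e-09). Hsp90b1, the ER member of the HSP90 family, had 1078, 1062 and 1107 CPM in sgCdk10, against 954, 966 and 979 CPM in sgControl, and rose by 0.16 (SE 0.03) on the log2 scale. Manf, a neurotrophic factor that also binds BiP, rose by 0.15 (SE 0.04). The lectins did not pass the test. Calr averaged 1238 ± 13.95 CPM in sgCdk10 and 1213 ± 39.5 CPM in sgControl (edgeR adjusted p = 0.39), and Canx averaged 505 ± 3.08 CPM in sgCdk10 and 506 ± 15.99 CPM in sgControl (SD, n = 3 each; edgeR adjusted p = 0.97). Calr was the most abundant of the 33 genes per length in both groups, at 429.96 CPM per kb in sgCdk10 and 421 in sgControl.

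The disulfide enzymes held the strongest rise. Ero1l (ENSMUSG00000021831, chr14:45283087-45318771, minus strand, 18 merged exons), the oxidase that passes electrons from disulfide isomerases to oxygen and is also known as a hypoxia-responsive gene, had 343, 354 and 344 CPM in sgCdk10, against 219, 213 and 221 CPM in sgControl. Its log2 fold change was 0.67 (SE 0.03, edgeR adjusted p = 2.5e-15) and every sgCdk10 library lay above every sgControl library. Its relative Ero1lb, best known from pancreatic islets, had 10.9, 11.3 and 13.2 CPM in sgCdk10, against 9.02, 7.91 and 8.54 CPM in sgControl, and rose by 0.48 (SE 0.10, edgeR adjusted p = 0.00028). Per length Ero1lb stood at 1.77 CPM per kb in sgCdk10 and 1.28 in sgControl, beside 65.7 and 41.2 for Ero1l. Of the isomerases, Pdia4 had 317, 323 and 314 CPM in sgCdk10, against 237, 249.7 and 248 CPM in sgControl, a rise of 0.38 (SE 0.03) on the log2 scale. Pdia6, which also tempers the sensors, rose by 0.23 (SE 0.03), and P4hb, the archetypal isomerase PDI, rose by 0.15 (SE 0.02). Pdia3, the isomerase that works with the lectins, had 614, 619.6 and 640.3 CPM in sgCdk10 and 601, 608 and 617 CPM in sgControl (edgeR adjusted p = 0.27).

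**Figure D2:**
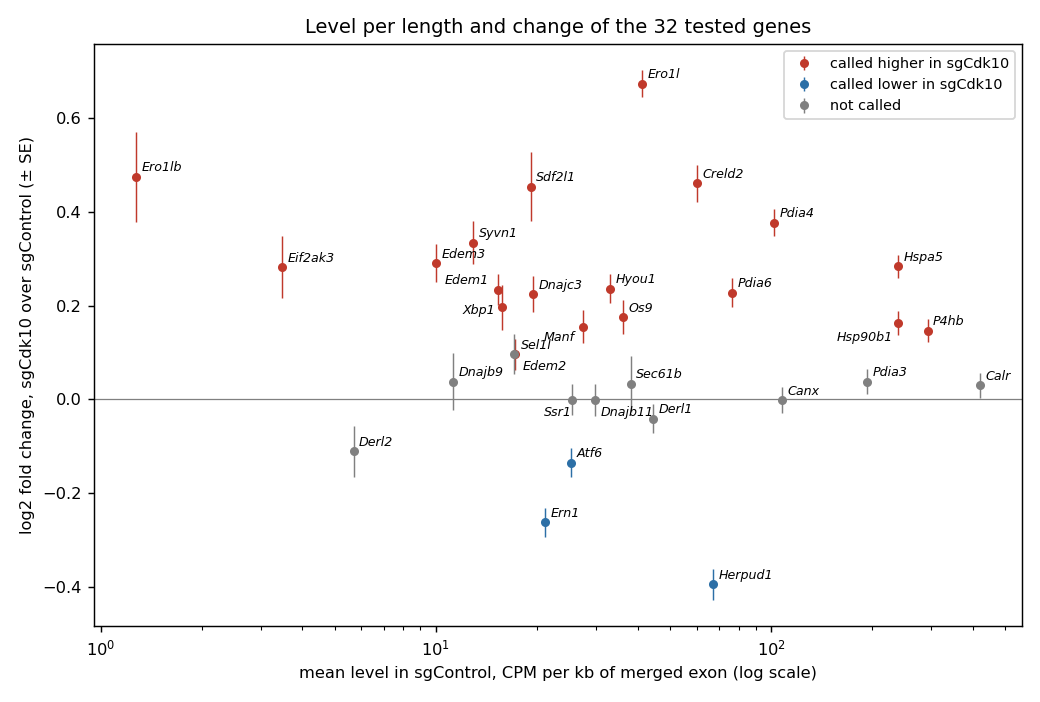
The x axis gives the mean level in sgControl in CPM per kb of merged exon on a log scale, and the y axis the log2 fold change of sgCdk10 over sgControl with its standard error, for the 32 tested genes. Called rises are found from Ero1lb at 1.28 CPM per kb to P4hb at 293, while Calr, Pdia3 and Canx lie near 0 at high levels and Herpud1 lies lowest.

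ERAD genes were divided. Syvn1, the ubiquitin ligase HRD1, had 78.9, 79.2 and 79.3 CPM in sgCdk10, against 66.1, 65.1 and 57.2 CPM in sgControl, and rose by 0.33 (SE 0.05) on the log2 scale. The mannosidase-like proteins Edem3 and Edem1, which trim glycans and so mark chains for clearance, rose by 0.29 (SE 0.04) and 0.23 (SE 0.03). Edem2, with 62.9, 65.2 and 61.7 CPM in sgCdk10 against 58.8, 61.1 and 57.6 CPM in sgControl, had groups that did not overlap but was not called (edgeR adjusted p = 0.070). Os9, a lectin that hands trimmed glycoproteins to the ligase, rose by 0.18 (SE 0.04). Sel1l, the adaptor of the ligase, rose by 0.10 (SE 0.03, edgeR adjusted p = 0.019); this call was not made by DESeq2 (adjusted p = 0.0719), nor with a correction for GC content and length (log2 fold change 0.06, adjusted p = 0.109). It was also lost without sgControl replicate 2 and without sgCdk10 replicate 2 or 3.

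Herpud1 was the 1 gene called lower among the 9 tested ERAD genes of the 33 (11.1%, against 20.4% of all genes tested). Of the 9, 5 were called higher (55.6%, against 22.1%). Herpud1 (ENSMUSG00000031770, chr8:94386438-94395377, plus strand, 10 merged exons) encodes HERP, a ubiquitin-like membrane protein that recruits substrates and derlins to HRD1. It had 117, 121 and 119 CPM in sgCdk10, against 161, 156 and 152 CPM in sgControl. The groups did not overlap, and the log2 fold change was -0.39 (SE 0.03, edgeR adjusted p = 6.9e-10). The derlins, membrane proteins of the exit channel, were not called. Derl1, whose groups did not overlap, averaged 144 ± 1.92 CPM in sgCdk10 and 148 ± 2.05 CPM in sgControl (SD, n = 3 each; edgeR adjusted p = 0.30). Derl2 had 43.5, 42.4 and 41.3 CPM in sgCdk10 and 43.6, 43.4 and 50.2 CPM in sgControl (edgeR adjusted p = 0.10); it was called lower, by 0.15, without sgControl replicate 2, and by 0.14 with the GC and length correction, while without sgControl replicate 3, its highest library, the log2 fold change was -0.04 (edgeR adjusted p = 0.50). Derl3, a derlin typical of secretory cells, had 9, 5 and 10 counts in sgCdk10 and 6, 4 and 9 counts in sgControl, and was not tested. In the translocon, Sec61b, a subunit of the SEC61 channel, and Ssr1, a subunit of the TRAP complex beside it, had log2 fold changes of 0.03 (SE 0.06) and -0.0010 (SE 0.03), and neither was called.

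Exons of some of these genes overlap those of other genes, and the strand setting of the counting is not given, so their reads may be shared. Manf overlaps Rbm15b and, on the opposite strand, Dcaf1, with 65.6 and 83.5 CPM in sgCdk10 and 68.9 and 82.5 CPM in sgControl, neither of them called. Syvn1 overlaps Mrpl49 on the opposite strand, at 55.9 CPM in sgCdk10 and 58.9 CPM in sgControl (edgeR adjusted p = 0.17). Derl2 overlaps Mis12 on the opposite strand, which rose by 0.13 (edgeR adjusted p = 0.019) while Derl2 was not called. The partners of Hsp90b1, Pdia3, Pdia4, Pdia6, Dnajb9 and Eif2ak3 that could be looked up were each at or below 2.64 CPM in both groups; the highest, Gm15344 on the strand of Hsp90b1, rose by 0.85.

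Promoters of the ER genes were searched for the ER stress response element (ERSE), the site bound by ATF6 and NF-Y, as the letters CCAAT, 9 further bases and CCACG on either strand. RefSeq windows of 250 bases before to 50 after the start were held for 29 of the 33 genes (GRCm38.p6). The element was in the windows of 10 of these genes, or 34.5%, and in 0.119% of all 32851 windows. The related ERSE-II (ATTGG, 1 base, CCACG) was in the windows of Herpud1 and Dnajb11, and in 0.0365% of all windows. The UPRE core TGACGTGG, in 0.676% of all windows, was in no member's window. The sites are shown because they are what the promoters of genes in several roles have in common; capitals mark the fixed letters and each is read 5′ to 3′ on its own strand:
Hspa5, chr2:34772025-34772043, plus: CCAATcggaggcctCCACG
Hsp90b1, chr10:86705533-86705551, plus: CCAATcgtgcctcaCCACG
Hsp90b1, chr10:86705638-86705656, minus: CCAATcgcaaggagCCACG
Creld2, chr15:88819520-88819538, minus: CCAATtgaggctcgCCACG
Syvn1, chr19:6046532-6046550, plus: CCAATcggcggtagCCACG
Pdia6, chr12:17266491-17266509, plus: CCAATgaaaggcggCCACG
Dnajc3, chr14:118937827-118937845, plus: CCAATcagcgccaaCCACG
Ero1lb, chr13:12565682-12565700, minus: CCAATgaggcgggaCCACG
Calr, chr8:84847075-84847093, plus: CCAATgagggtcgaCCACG
Canx, chr11:50325800-50325818, minus: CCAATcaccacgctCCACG
Derl3, chr10:75893242-75893260, minus: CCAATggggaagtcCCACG
Herpud1, chr8:94386377-94386387, plus, ERSE-II: ATTGGgCCACG
Dnajb11, chr16:22857852-22857862, plus, ERSE-II: ATTGGcCCACG

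Among the genes with the ERSE letters, 9 were tested, and 7 of them rose and 0 fell, with a median log2 fold change of 0.23. The members without the ERSE letters in their window numbered 19, of which 10 rose and 2 fell, with a median of 0.10. These 19 include Herpud1, which fell, and Dnajb11, which was not called, and both hold the related ERSE-II. Hyou1, Manf, Atf6 and Derl1 had no window and are in neither group. Both groups share the choice of genes, and no test was made between them. Of all 32 ER genes tested, 59.4% rose and 9.38% fell. Over all genes tested, 22.1% were higher and 20.4% lower. Calr and Canx carry the letters and were not called, and Ero1l, with the strongest rise, does not carry them in this window. Outside the ER genes 8 tested genes carried the ERSE letters, of which 2 were higher and 3 lower, with a median of -0.09. A match of letters is a description of the window and not evidence of binding.

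**Figure D3:**
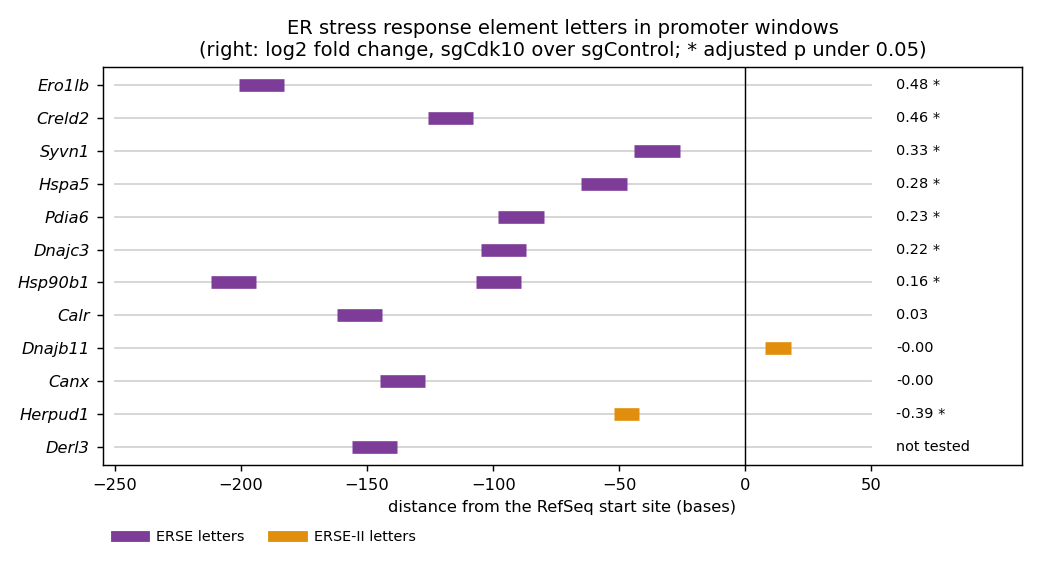
The x axis gives the distance in bases from the RefSeq start site, and each row is 1 gene whose window holds ERSE or ERSE-II letters, ordered by its log2 fold change of sgCdk10 over sgControl, printed at the right. The ERSE letters lie before the start in each of the 10 genes, and 7 of the 9 tested ones carry a star for an adjusted p under 0.05.

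The windows of Hspa5, Creld2 and Herpud1 are shown whole, the first 2 as risen genes with the element on opposite strands and the third as the gene that fell, with fixed letters of ERSE and ERSE-II in capitals:
Hspa5, chr2:34771840-34772139, plus: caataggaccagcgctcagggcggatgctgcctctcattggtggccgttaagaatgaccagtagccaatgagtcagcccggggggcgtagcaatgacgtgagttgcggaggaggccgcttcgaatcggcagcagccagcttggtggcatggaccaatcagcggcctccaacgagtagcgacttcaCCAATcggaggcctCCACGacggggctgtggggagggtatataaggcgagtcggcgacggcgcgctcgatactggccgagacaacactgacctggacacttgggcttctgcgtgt
Creld2, chr15:88819396-88819695, plus: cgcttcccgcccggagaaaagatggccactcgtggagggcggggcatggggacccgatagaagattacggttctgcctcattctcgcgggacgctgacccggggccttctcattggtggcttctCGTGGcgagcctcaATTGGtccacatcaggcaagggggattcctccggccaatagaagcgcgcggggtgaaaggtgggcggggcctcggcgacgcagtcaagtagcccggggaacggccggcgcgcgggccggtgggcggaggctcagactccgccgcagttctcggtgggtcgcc
Herpud1, chr8:94386179-94386478, plus: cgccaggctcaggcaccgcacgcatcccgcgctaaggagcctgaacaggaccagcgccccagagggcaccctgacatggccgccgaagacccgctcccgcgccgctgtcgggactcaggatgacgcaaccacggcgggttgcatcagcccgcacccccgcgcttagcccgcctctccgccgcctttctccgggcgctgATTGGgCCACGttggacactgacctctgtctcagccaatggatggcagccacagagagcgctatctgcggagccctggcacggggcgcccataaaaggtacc
The Herpud1 window also holds TGATGNAA, a shortened form of the composite site bound by ATF4 and its partners, on the minus strand from 112 to 105 bases before the start. This shorter form was searched after the window had been read; it is in 3.97% of all windows and in no other of the 29 genes with a window. The full composite (TGATG, 1 base, AAT), in 0.965% of all windows, is in none of the 29.

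The wider pathway was followed in lists of genes outside the 33. These lists too were chosen with earlier results of these data known and are not independent evidence of direction. Beside 22.1% higher and 20.4% lower over all genes tested, 13 of 30 other folding enzymes tested rose (43.3%) and 4 fell (13.3%), with a median log2 fold change of 0.10. Gpx8, an ER peroxidase that uses hydrogen peroxide from ERO1, rose by 0.48, Fkbp11, a prolyl isomerase, by 0.42 and Dnajc1, a membrane J-domain protein, by 0.24 on the log2 scale. Sil1, a second nucleotide exchange factor of BiP, fell by 0.36, Cnpy2 by 0.21 and the prolyl isomerase Fkbp9 by 0.14. Of 31 genes of the translocon, signal peptidase and oligosaccharyltransferase tested, 11 rose (35.5%, against 22.1% of all genes tested) and 4 fell (12.9%, against 20.4%), with a median of 0.06. Sec61a1, the pore of the channel, rose by 0.18, Srprb, a subunit of the signal recognition particle receptor, by 0.21 and Ssr2 by 0.16, while Ssr4 fell by 0.32, Krtcap2 by 0.32 and Srp19 by 0.17.

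Genes of transport between the ER and the Golgi were mostly higher or not called. The list holds the COPII coat, ER to Golgi transport and some genes of the return path, such as Kdelr1 and Copb1. Of its 30 genes, 16 rose (53.3%, against 22.1% of all genes tested) and 1 fell (3.33%, against 20.4%), with a median of 0.10. Kdelr3, a receptor that returns escaped chaperones to the ER, had 15.4, 17.3 and 17.3 CPM in sgCdk10, against 11.2, 12.4 and 12.0 CPM in sgControl, a rise of 0.49 (SE 0.08). The coat genes Sec23a and Sec24c rose by 0.38 and 0.27, and Preb, the exchange factor of SAR1, fell by 0.18.

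Other ERAD genes differed from the members in their balance of calls. Of 29 tested, 2 rose (6.90%, against 22.1% of all genes tested) and 12 fell (41.4%, against 20.4%), with a median of -0.06. Fam8a1, a partner of HRD1, rose by 0.21 and the selenoprotein gene Selenok by 0.18; the second was not called by DESeq2 (adjusted p = 0.060) or without sgCdk10 replicate 1 (edgeR adjusted p = 0.092). Erlin1, a scaffold in the ER membrane, fell by 0.36, Tmem129, a ubiquitin ligase, by 0.27 and Nploc4, a cofactor of the p97 segregase, by 0.18. Vcp, the gene of p97, and Ufd1, another of its cofactors, fell by 0.16 and 0.11. In the same list Ubxn6 fell by 0.37, while Faf2 and Ubxn4 were not called (edgeR adjusted p = 0.61 and 0.99). Vcp, Ufd1, Ubxn6, Faf2 and Ubxn4 were named after their values were seen. The difference in balance between the lists was not tested.

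Most genes listed for the PERK arm were lower, while Eif2ak3 itself rose. Whether PERK accounts for their levels was not tested. Of 15 tested, 11 fell (73.3%, against 20.4% of all genes tested) and 1 rose (6.67%, against 22.1%), with a median of -0.50. This list, like the others, was written with earlier results known, and is not independent evidence of its direction. Atf4, the transcription factor of this arm, had 723, 705 and 718 CPM in sgCdk10, against 1051, 1058 and 1023 CPM in sgControl, a fall of 0.55 on the log2 scale (SE 0.03). Trib3, a pseudokinase induced by ATF4 and CHOP, fell by 1.22 (SE 0.04) and Chac1, which degrades glutathione, by 1.06 (SE 0.05). Eif2s1, which encodes the eIF2-alpha substrate of PERK, rose by 0.09 (edgeR adjusted p = 0.017), which DESeq2 did not call (adjusted p = 0.058) and which was lost without sgControl replicate 1 or sgCdk10 replicate 2 or 3. Of 21 other regulators of the unfolded protein response, 7 rose (33.3%, against 22.1% of all genes tested) and 6 fell (28.6%, against 20.4%), with a median of 0.03. Tbl2, an ER protein that binds PERK, had 147, 150.4 and 147 CPM in sgCdk10, against 80.8, 78.9 and 85.4 CPM in sgControl, a rise of 0.86 (SE 0.04, edgeR adjusted p = 1.2e-15). Creb3l2, an ER-anchored transcription factor related to ATF6, rose by 0.51 and Yy1, a coactivator at the Hspa5 promoter, by 0.31. Crebrf fell by 0.36, Wfs1 by 0.31 and Nfyc, a subunit of NF-Y, by 0.25. The other NF-Y subunits, Nfya and Nfyb, rose by 0.15 and 0.22 (edgeR adjusted p = 0.0014 and 0.0067). They were named after their values were seen.

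**Figure D4:**
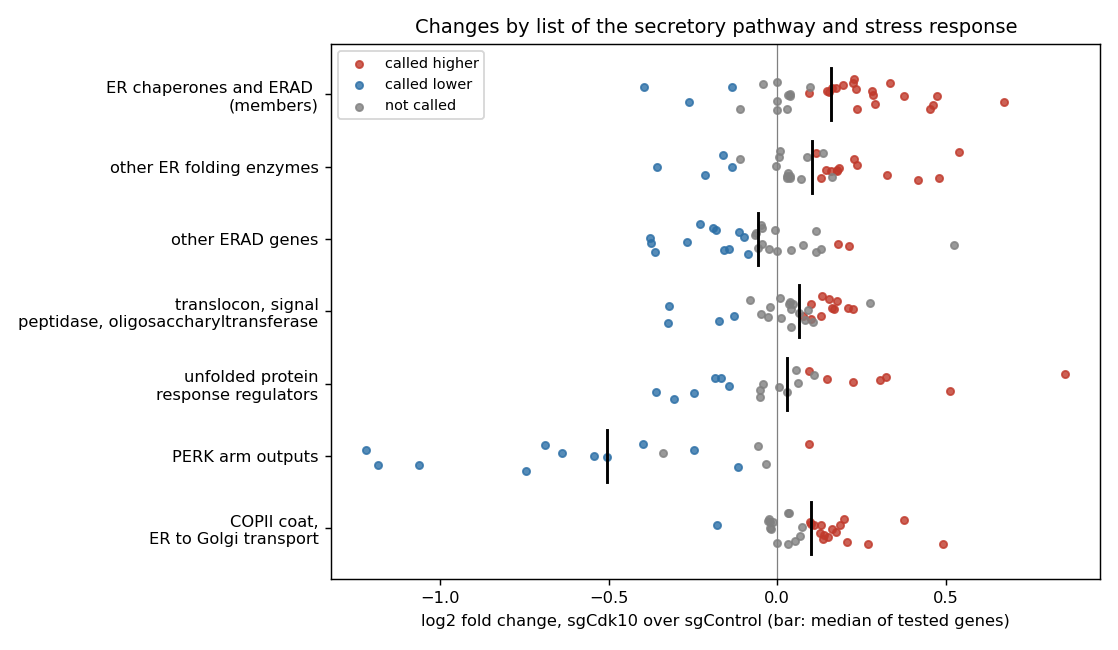
Each point is 1 tested gene, the x axis gives its log2 fold change of sgCdk10 over sgControl, and each row is a list, with the 33 ER genes (32 tested) on top and a black bar at the median. The bar lies at 0.16 for the ER genes, at 0.10 for transport and other folding enzymes, at -0.06 for other ERAD genes and at -0.50 for the genes listed for the PERK arm.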

How the data were processed

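RNA counts per gene were analysed for 6 libraries of CT26 cells, 3 of sgCdk10 and 3 of sgControl, grouped by their titles. The authors deposited raw counts per Ensembl gene with no normalization; per the submitters' processing notes, the build was mm10 and the tools were featureCounts 2.0.3, HISAT2 2.2.1 and DESeq2 1.40.2, with no settings listed. For the annotation and strand setting, the record is: not given in the sources used here. Gene names, exons and coordinates are those of GENCODE M21 (GRCm38), so Ero1l and Ero1lb stand for Ero1a and Ero1b; 52081 of 57010 identifiers had a name. Totals ran from 17532202 to 19258309 counts.

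Genes were kept by filterByExpr of edgeR 4.0.16 (minimum count 10, minimum total 15), scaled by TMM and tested with the robust quasi-likelihood test, with group as the only term and Benjamini-Hochberg adjustment over 13442 genes at a threshold of 0.05. The standard error is the fold change over the root of its F statistic. CPM values use the TMM-adjusted totals, and CPM per kb divides by the merged exon length, which can exceed the length of the transcripts in use. The replicate number was not a term of the model. Scripts were tested on simulated data with far fewer changed genes than were called here. There 53.1% of 1.25-fold changes and 87.8% of 2-fold changes were recovered, and 9.36% of the calls were unchanged genes. The members and lists were chosen with earlier results of these data known. Named are all 33 members, Cdk10 and, in each further list, up to 3 called genes with the smallest p in each direction; exceptions are marked. One listed gene, Tusc3, was not matched. Promoters are from RefSeq (GRCm38.p6). A search of protein ends was planned and not run, since no protein sequences were used here. Alternatives were DESeq2 1.42.0, limma-voom (limma 3.58.1), size factors of the DESeq2 type, no filter, a stricter filter (all libraries of 1 group at 1 CPM or more), dispersions without robust weighting, a replicate block, a loess correction for GC content and length (span 0.5; 13242 of the 13442 genes had values) and leaving out each library.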

Additional observations from a re-analysis of the deposited data

How the results depend on the processing

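Of the 22 ER genes called, 21 kept their call and direction in all 14 alternatives; the exception was Sel1l. The members called higher numbered 19 in most settings and 18 with DESeq2, with the GC and length correction and without sgCdk10 replicate 2 or 3; those called lower numbered 3, and 4 with the GC and length correction and without sgControl replicate 2. Over all genes DESeq2 made the fewest calls of the settings with all libraries, 4179, and the GC and length correction the most, 5952. With that correction 2684 genes were higher and 3268 lower, against 2970 and 2747, so that the balance over all genes turned, and 5100 of the 5717 calls were made again in the same direction. The calls ran from 4791 to 6056 with a library left out, against 5717. Cdk10 was lower in every alternative run. Edem2 was called higher without sgControl replicate 2 (log2 fold change 0.12). Signs that turned were those of genes that were not called: Ssr1 had 0.00023 with limma-voom and Dnajb11 0.0043 with the GC and length correction, and with a library left out the log2 fold changes ran from -0.014 to 0.012 for Dnajb11, from -0.023 to 0.019 for Canx, from -0.050 to 0.090 for Sec61b, from -0.023 to 0.041 for Ssr1 and from -0.013 to 0.084 for Dnajb9; the cause was not tested. With the replicate block 5481 genes were called and the ER counts were 19 higher and 3 lower; it changed no call of a member. The replicate numbers serve as names of the libraries in the labels, so they were not taken to pair the samples. Deviations of same-numbered libraries correlated at 0.03, -0.06 and -0.10, and a library's own number gave the best match for replicate 1 only. With 3 libraries a group these correlations cannot decide whether the samples were paired. Standard errors of 0.02 to 0.10 with 3 libraries a group limit which small differences could be called.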

Other observations

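Genes whose promoter windows hold the ATF4 composite letters (TGATG, 1 base, AAT) were counted across the whole table, as a description with no test. Of 49 tested, 6 were higher in sgCdk10 (12.2%) and 16 were lower (32.7%), with a median log2 fold change of -0.09, beside 22.1% and 20.4% of all genes tested. For the shorter form TGATGNAA, searched after the Herpud1 window had been read, 52 of 251 tested genes were higher (20.7%) and 76 were lower (30.3%), with a median of -0.04. For the UPRE core TGACGTGG, 24 of 95 were higher and 20 lower. Windows can hold more than 1 of these motifs, and the full composite is contained in the shorter form.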
